A study of Bos taurus with 3 samples.

Results

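The arrestins SAG (rod arrestin, also called S-antigen, NCBI gene 280922) and ARR3 (cone arrestin, NCBI gene 281011) were followed in a map of Argonaute binding made from dissected bovine retina. The members are the listed sites whose gene name, upper-cased, equals SAG or ARR3: 7 sites in SAG and 1 site in ARR3, of 402 listed sites in all, in 2 of the 280 named genes. The map comes from HITS-CLIP, in which ultraviolet light (3 exposures of 400 mJ/cm2, per the labels' protocols) links RNA to the proteins that touch it and the RNA that co-purifies with Argonaute is sequenced. The labels give 3 replicates of 1 group, retina of mixed strain crosslinked as clusters of cells, without a control. They do not say whether each replicate was a separate animal, so the spread between replicates may be technical. Whole retina was used, with no sorting of rods from cones.

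Arrestins end the response of a photoreceptor to light. A G protein-coupled receptor kinase phosphorylates the light-activated visual pigment, and arrestin then binds that phosphorylated receptor and keeps it from activating more transducin. SAG does this in rods, where it is one of the most abundant proteins, and ARR3 is the form of cones; the related ARRB1 and ARRB2 act on receptors in many tissues. Argonaute carries miRNAs to messenger RNAs, and the sites best known for repression lie in 3' UTRs, although Argonaute is also found on coding sequence.

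A listed site is a place where the authors' tables give a peak in each of the 3 replicates, and its height is the number of sequenced tags in the peak. The SAG sites lay on the plus strand of chromosome 3 and are numbered here from 1 to 7 in the 5' to 3' direction. The authors placed sites 1 to 6 in coding sequence and site 7 in the 3' UTR. The ARR3 site lay in coding sequence on the minus strand of chromosome X. Positions are those of the authors' genome build (not given in the sources used here), counted from 1.

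The tallest SAG site was site 5 (chr3:119372689-119372756), with 14, 15 and 11 tags in replicates 1, 2 and 3, a mean of 13.3 ± 2.08 (SD, n = 3). Site 1 (chr3:119351643-119351732), the first in the direction of transcription, had 11, 14 and 12 tags, a mean of 12.3 ± 1.53. These were the only SAG sites above the median height of all 402 sites, 10.3 tags, and in replicates 2 and 3 both stood above the other SAG sites. In replicate 1 site 6 stood above site 1, and sites 2 and 3 equalled site 1 at 11 tags.

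The other coding sites of SAG had lower means, and in unscaled tags sites 2, 3 and 6 varied more between replicates than site 4. For site 6 this order did not hold after scaling by each replicate's median ratio over the sites. The scaled values in replicates 1, 2 and 3 were 9.86, 9.42 and 7.76 at site 6 and 6.58, 8.48 and 10.3 at site 4. Site 6 (chr3:119377319-119377438) had 12, 10 and 6 tags in replicates 1, 2 and 3, and site 4 (chr3:119366058-119366137) had 8, 9 and 8. Site 2 (chr3:119360689-119360726) had 11, 4 and 10 tags, the low value being in replicate 2. Site 3 (chr3:119362146-119362211) had 11, 9 and 3 tags, the low value being in replicate 3, and 3 tags is the fewest that any peak in the tables holds. Their means were 9.33 ± 3.06, 8.33 ± 0.577, 8.33 ± 3.79 and 7.67 ± 4.16 tags for sites 6, 4, 2 and 3 (SD, n = 3). The SAG site in the 3' UTR, site 7 (chr3:119381139-119381203), had 9, 12 and 6 tags, a mean of 9 ± 3, which lay inside the range of the coding sites of the same gene.

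The ARR3 site (chrX:50080160-50080229) had 6, 13 and 7 tags in replicates 1, 2 and 3, a mean of 8.67 ± 3.79 (SD, n = 3). Its highest value lay in replicate 2, and its mean fell inside the range of the SAG sites, 7.67 to 13.3 tags. Counting error alone is large at this depth: over the 3 replicates together the ARR3 site held 26 tags, which gives an exact 95% Poisson interval of 5.66 to 12.7 tags per replicate, and SAG site 5 held 40 tags, an interval of 9.53 to 18.2. The intervals cover counting error only and assume Poisson counts with no upper limit. In every peak of the tables, however, the tag count was at least 19 below the length in nt. SAG sites held on average 14.9% to 49.1% of the tags this bound allows, and the ARR3 site 24.3%. Whether the bound changes the spread of the counts was not tested, and molecular identifiers are not described.

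**Figure D1:**
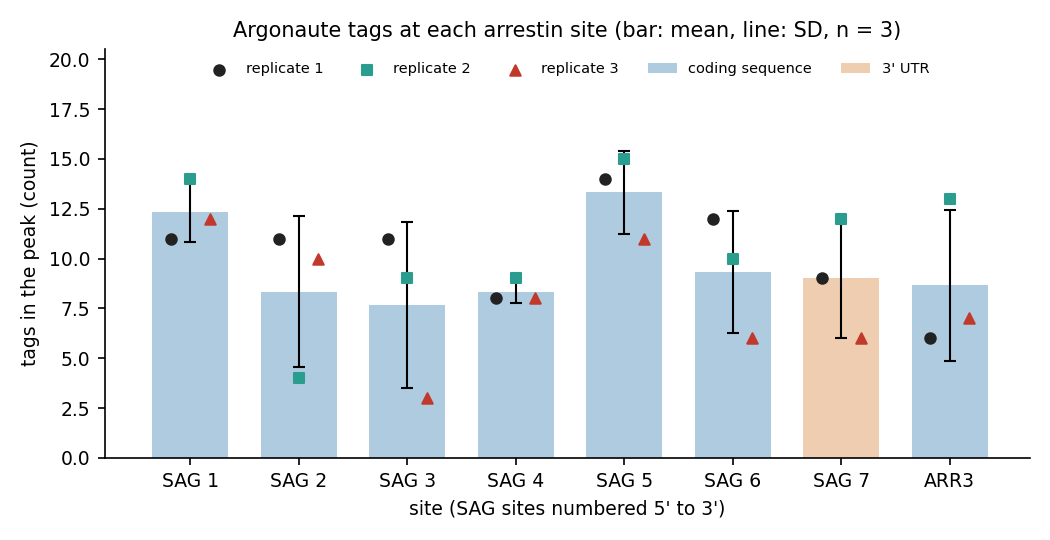
Tags in the peak (vertical axis, count) at the 7 SAG sites and the ARR3 site, with bars for the mean, lines for the SD over 3 replicates and a marker for each replicate. SAG sites 1 and 5 have the highest means, and the ARR3 bar at 8.67 tags lies inside the range of the SAG bars.

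The question a replicated map allows for each site is whether its tags differed between replicates by more than counting noise. Counting noise here means independent tags with no bound from peak length, and the effect of such a bound on the p-values was not tested. None of the 8 arrestin sites was called by an exact multinomial test with Benjamini-Hochberg adjustment over all 402 sites, in which 20 sites, or 4.98%, were called. The smallest adjusted p among the arrestin sites was 0.452, at SAG site 2, followed by 0.629 at the ARR3 site; the other 6 SAG sites had adjusted p from 0.889 to 0.998 (exact multinomial test). At an unadjusted p under 0.05 the test took 0 of the 8 arrestin sites and 59 of all sites, or 14.7%. A count of 0 among 8 sites near a background of 4.98% says little about these sites, and a site that misses the threshold is not shown to be equal across replicates.

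Summed over its sites, SAG had 76, 73 and 56 tags in replicates 1, 2 and 3, a mean of 68.3 ± 10.8 (SD, n = 3). It ranked 9, 10 and 8 among the 280 named genes in replicates 1, 2 and 3, and 8 by the mean, a rank it shared with HIPK3. These tags were 1.18% (95% Wilson interval 0.947 to 1.48), 1.26% (1.01 to 1.59) and 1.36% (1.05 to 1.76) of all tags in listed sites in the 3 replicates, so the share was nearly even although the unscaled sum was lowest in replicate 3. By its tallest site alone SAG ranked only 83 of the 280 genes. Its place among the genes with the most tags came from the number of its sites, 5 of which were below the median height.

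ARR3 had the tags of its single site, 0.0934% (95% Wilson interval 0.0428 to 0.204), 0.225% (0.132 to 0.385) and 0.170% (0.0824 to 0.351) of the listed tags in replicates 1, 2 and 3. Its rank among the 280 genes was 244, 101 and 146 in the 3 replicates and 180 by the mean, so a change of a few tags moved it far along the list. Of the 258 named genes that are not miRNA genes, 169 had more tags than ARR3, and their median was 11 tags.

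SAG exceeded ARR3 in summed tags in every replicate, by 70, 60 and 49 tags, a mean difference of 59.7 ± 10.5 (SD, n = 3). The ratio of SAG to ARR3 was 12.7, 5.62 and 8 in replicates 1, 2 and 3. The exact paired permutation test over the 3 replicates (two-sided) gave p = 0.25, which is the smallest p that 3 pairs allow, so the design cannot reach 0.05. With the tallest site of each gene in place of the sum, SAG was ahead by 8, 2 and 4 tags, a mean of 4.67 (exact paired permutation test, p = 0.25). The SAG site was picked by these same tags from 7 sites and ARR3 has only 1. This choice favours SAG, so the lead says nothing about a typical site. The messenger RNA levels were not measured, and in whole retina fewer cones than rods and less RNA per cell cannot be told apart.

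Per length of peak the arrestin genes were close. The SAG peaks covered 436, 437 and 387 nt in replicates 1, 2 and 3 and held 17.4, 16.7 and 14.5 tags per 100 nt, a mean density of 16.2 ± 1.54. The ARR3 peaks covered 50, 56 and 57 nt and held 12, 23.2 and 12.3 tags per 100 nt, a mean density of 15.8 ± 6.40 (SD, n = 3). SAG had the higher density in replicates 1 and 3 and ARR3 in replicate 2, and the range of ARR3 enclosed that of SAG; the mean difference was 0.370 tags per 100 nt (exact paired permutation test, p = 1, a comparison chosen after seeing the data). The spread of ARR3 is too wide for this to show that the densities are alike.

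**Figure D2:**
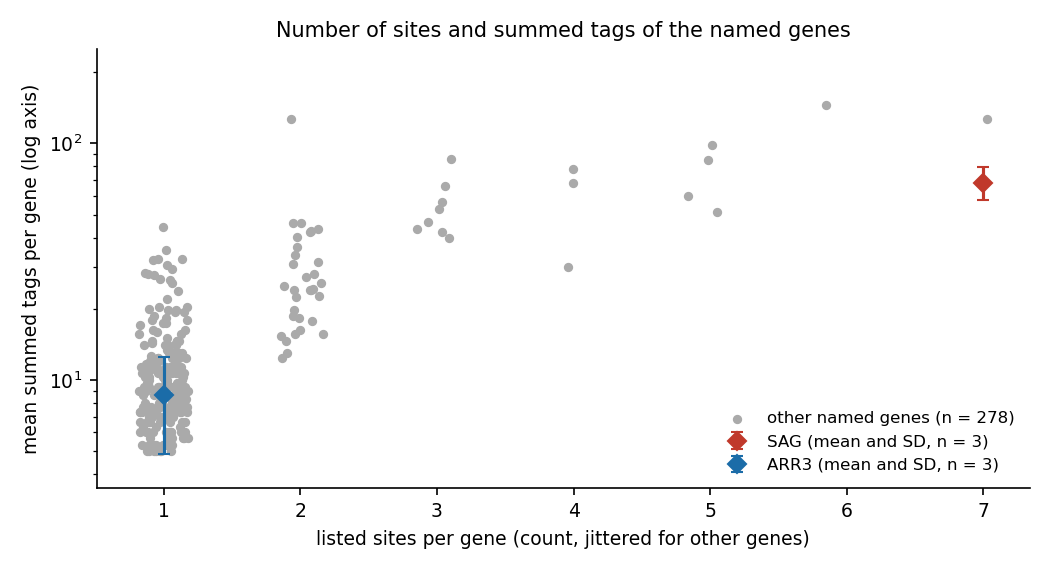
Mean summed tags per gene (vertical axis, logarithmic) against the number of listed sites per gene (horizontal axis) for the 280 named genes, with SAG and ARR3 marked with mean and SD over 3 replicates. SAG stands at 7 sites and 68.3 tags, and ARR3 lies within the mass of genes with 1 site, at 8.67 tags.

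In genomic sequence the SAG sites were spread out rather than packed into one stretch. From the start of site 1 to the end of site 7 they reached over 29561 nt of genomic sequence, and the sequence between neighbouring sites was 8956, 1419, 3846, 6551, 4562 and 3700 nt from 5' to 3'. The shortest of these gaps, between sites 2 and 3, is longer than any arrestin peak, which were 24 to 108 nt long. None of the SAG sites would therefore join with its neighbour if sites within 1000 nt of genomic sequence were merged. These gaps include any introns, so the spacing of the sites on the spliced messenger RNA, where they may lie much closer, was not measured. How many exons the 6 coding sites fall in was not analysed here, because no annotation of the authors' build was used.

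**Figure D3:**
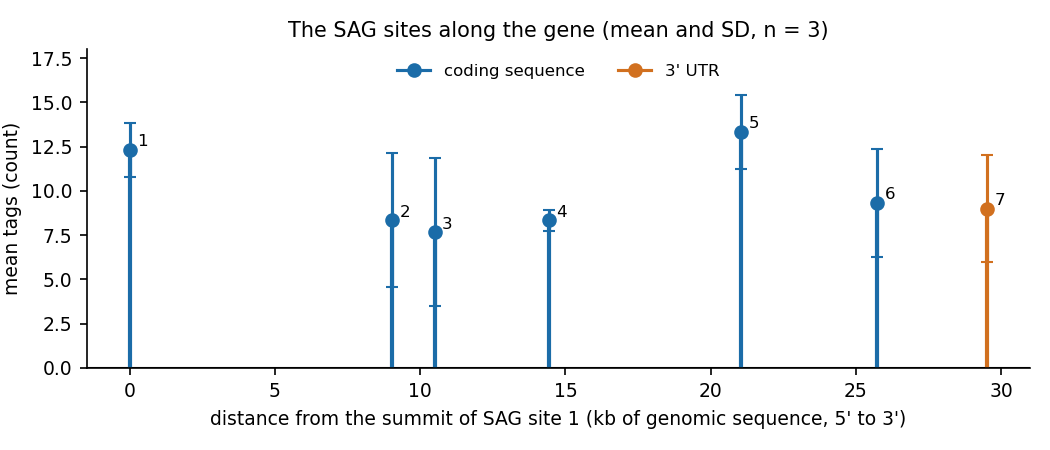
Mean tags (vertical axis, count, with SD over 3 replicates) of the 7 SAG sites against their distance from the summit of site 1 in kb of genomic sequence, 5' to 3'. The sites run to 29.5 kb, sites 2 and 3 are the closest pair, and the last site is the one in the 3' UTR.

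At most arrestin sites the summits of the 3 replicates lay close together. The summits of a site differed by 1 nt at SAG site 2, by 2 nt at site 3, by 5 nt at site 1, by 6 nt at site 6 and by 10 nt at site 7 and at the ARR3 site. At SAG sites 4 and 5 they differed by 38 and 30 nt, with replicate 1 apart at site 4 and replicate 3 apart at site 5. The median over all 402 sites was 9 nt and the largest difference was 39 nt. Closeness of the summits may thus have been a condition of listing, since the listing rule is not given. The bases shared by all 3 peaks made up 89.1% to 100% of the shortest peak in the SAG sites and 72% in the ARR3 site, where the peak of replicate 1 lay further 3' than the others.

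The peaks also differed in length. By mean length site 6 had the longest SAG peaks, 98, 108 and 52 nt in replicates 1, 2 and 3, and site 2 the shortest, 37, 32 and 37 nt. In replicate 3, however, the longest SAG peak was at site 1, 84 nt, and the shortest at site 3, 24 nt. The peaks of site 3 were 66, 58 and 24 nt long, so the low tag count of replicate 3 went with a short peak. In every peak of the tables the tag count was at least 19 below the length in nt, which would have let the 24 nt peak of site 3 hold 5 tags at most, and it held 3; the part of this bound in the count was not tested. At site 2 the low count of replicate 2 came from a peak of 32 nt that could have held 13 tags and held 4.

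**Figure D4:**
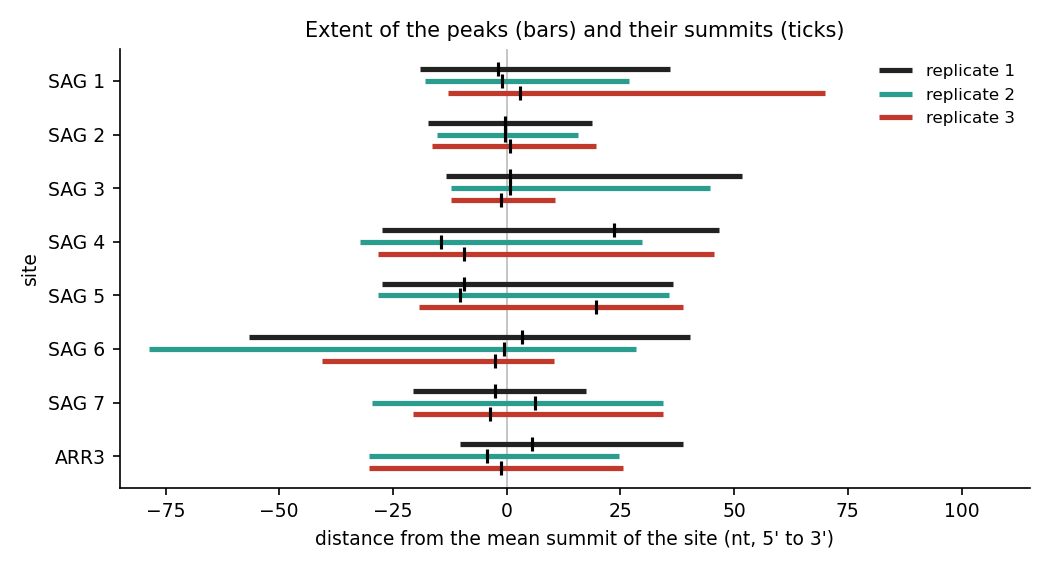
Extent of each peak (bars, nt) and its summit (black ticks) at the 8 arrestin sites, by replicate, aligned on the mean summit of the site and drawn 5' to 3'. The ticks lie within 10 nt of each other except at SAG sites 4 and 5, while the bars differ in length, most at sites 1, 3 and 6.

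The height of a summit can be read apart from the tags of a peak. The deposited fold enrichment was a whole multiple of 1 step in each replicate and strand table (tolerance 0.01 of a step), and the multiple is taken here as the pile-up at the summit. SAG site 1 had the highest mean pile-up of the arrestin sites, 10.7 ± 2.08 (SD, n = 3), with 10, 13 and 9 in replicates 1, 2 and 3. Site 2 had 11, 4 and 10, above site 1 in replicates 1 and 3 and far below it in replicate 2. These values were equal to the tags of site 2 in every replicate, so that all of its tags overlapped at the summit. The tallest site by tags, site 5, had 8, 8 and 7, and the ARR3 site 5, 8 and 5. By pile-up site 1 thus stood above site 5 in every replicate, while by mean tags it stood just below it. The SAG sites had a median pile-up of 7.67, against 6.33 in the 394 sites outside SAG and ARR3.

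Several arrestin peaks lay close to the limit of the tables. Every deposited peak had a score (the log10 of its p-value times minus 10) of at least 200.02. The lowest scores in SAG were 213.55 at site 2 in replicate 2 and 225.24 at site 3 in replicate 3, and the lowest of ARR3 was 234.52 in replicate 1. The other 5 SAG sites had a lowest score from 256.24 to 459.87. Sites with a peak under 250 were 2 of 7 in SAG, against 139 of all 402 (34.6%). A somewhat stricter limit would have removed these sites, and places where only 1 or 2 replicates had a peak are not in the tables, so the numbers 7 and 1 are counts above a threshold and not counts of all bound places.

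Most SAG sites lay in coding sequence, whereas most listed sites did not. Of the 7 SAG sites 6 were in coding sequence (85.7%), against 75 of the 395 sites outside SAG (19.0%). The coding sites held 67, 61 and 50 of the SAG tags in replicates 1, 2 and 3, or 87.0% ± 3.03 (SD, n = 3). With 6, SAG had the most coding sites of any named gene, followed by GNB1, the rod transducin beta subunit, with 4; only 12 genes had 2 or more. No test or interval is given for this share, because sites of 1 gene share their transcript. SAG's coding sites had a median of 8.83 tags and a median length of 62.5 nt, against 9 tags and 63.3 nt in the 74 coding sites outside SAG and ARR3. The shortest of them, site 2, had a mean length of 35.3 nt, below the 37 nt of the shortest of those 74. ARR3 was 1 of 39 genes whose single site was a coding one; these ran from 5 to 32 tags with a median of 8.67, the value of ARR3 itself.

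The SAG sites differed little from each other in height, as did those of several other genes with many sites. The most sites of any named gene were in SAG and in MAP1B, which binds microtubules in neurons. The tallest SAG site had 1.74 times the tags of the lowest, whereas in MAP1B the ratio was 4.41 and in GNAT1, the rod transducin alpha subunit, 7.83. The ratio was 1.87 in TNRC6B, an Argonaute partner in silencing, 2.04 in GNB1 and 2.12 in TNPO1, a nuclear import receptor, all close to SAG. Of the 10 genes with 4 or more sites only IMPG2, a proteoglycan of the interphotoreceptor matrix, had a smaller ratio, 1.71. Over the 50 genes with 2 or more sites the median ratio was 1.87 and 19 genes lay below SAG, all of them with fewer sites. Sites above the median height numbered 2 of 7 in SAG and 5 of 7 in MAP1B.

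**Figure D5:**
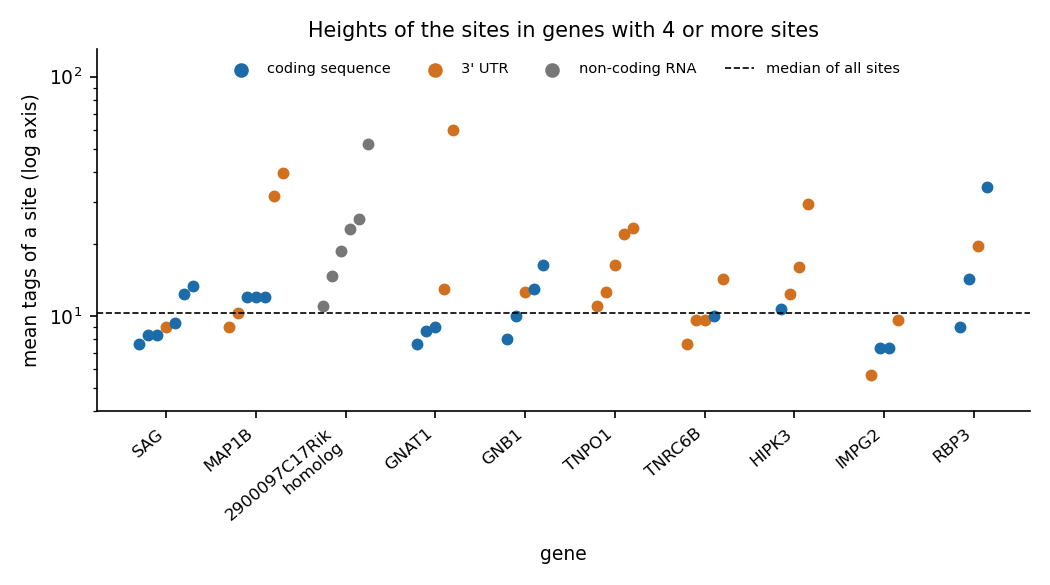
Mean tags of each site (vertical axis, logarithmic) in the 10 genes with 4 or more sites, coloured by the authors' location class, with the median of all 402 sites as a dashed line. The SAG points, mostly coding, lie between 7.67 and 13.3 tags, while MAP1B has 3' UTR sites far above its other sites. In GNAT1 the tallest 3' UTR site, at 60 tags, stands far above the rest, and the other 3' UTR site is at 13 tags.

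The genes nearest to SAG in mean summed tags, over 3 replicates and leaving out miRNA genes, had fewer sites. Since they were matched on the sum and no gene had more sites than SAG, more tags per site follow from the matching. Some of their sites still lay inside the range of the SAG sites. HIPK3, a protein kinase, had the same mean of 68.3 tags, with 55, 96 and 54 in replicates 1, 2 and 3, from 4 sites, 1 of them coding. SLC4A7, a bicarbonate transporter, had 66.3 ± 22.6 from 3 sites, a log2 difference of -0.04 from SAG. RBP3, the retinoid carrier between photoreceptors and pigment epithelium, had 77.7 ± 52.0 from 4 sites, 3 of them coding, a log2 difference of 0.18. All 3 genes varied more between replicates than SAG, whose SD was 10.8 tags. Genes with exactly the ARR3 mean of 8.67 tags included FARSA, a subunit of phenylalanyl-tRNA synthetase with a coding site of 11, 8 and 7 tags, and CAMSAP1, a protein of microtubule minus ends with a 3' UTR site of 11, 10 and 5 tags.

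Of 14 genes that end the light response or restore the dark state, 3 carried a site: SAG, ARR3 and RGS9BP, which anchors the complex that speeds transducin's GTP hydrolysis. RGS9BP had a single 3' UTR site of 47, 36 and 23 tags, well above any arrestin site in every replicate. The kinases GRK1 and GRK7, which prepare the receptor for arrestin, recoverin (RCVRN), RGS9, GNB5, the guanylate cyclases GUCY2D and GUCY2F, their activators GUCA1A and GUCA1B, and the exchangers SLC24A1 and SLC24A2 had no listed site. Of 16 genes listed for the activating branch, with the transducin regulator phosducin among them, 9 carried a site. So did 238 of the 21666 protein-coding symbols in the RefSeq table (1.10%). The lists were not tested against each other or against this share. Which of these transcripts were present was not measured, so the lack of a listed site does not show that Argonaute was absent from a gene.

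All 7 coding sites of the shut-off list were in the arrestins, and the site of RGS9BP was not a coding one. The list of the activating branch, phosducin included, had 15 coding sites of 21, against 81 of 402 (20.1%) over all sites. GNB1 had 4 coding sites of 5, at 8 to 16.3 mean tags, and its site in the 3' UTR had 12.7 ± 4.73. PDC (phosducin), which binds transducin beta-gamma, had 2 coding sites, of 14, 14 and 6 and of 15, 16 and 7 tags. In GNAT1, by contrast, the tallest site, of 63, 80 and 37 tags, lay in the 3' UTR. The other 3' UTR site of GNAT1 had a mean of 13 tags, and its 3 coding sites had means from 7.67 to 9 tags. No test of this difference was made.

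Within the arrestin family ARRB1 and ARRB2, the forms of most other cells, had no listed site. ARRDC3, a more distant relative with arrestin-like domains that was named after its values were seen, had a 3' UTR site of 10, 7 and 7 tags, about the height of the ARR3 site. A site was listed for 7 of 10 rod markers and 3 of 10 cone markers, against 1.10% of protein-coding symbols. The rod list includes SAG and the cone list ARR3, so the members contribute to both counts. The rod markers held 330, 349 and 226 tags in replicates 1, 2 and 3, of which SAG gave 76, 73 and 56. The cone markers held 32, 32 and 25, of which ARR3 gave 6, 13 and 7. Among the cone markers ARR3 lay between GNAT2, the cone transducin alpha subunit, with 12.7 ± 1.15 tags in its 3' UTR, and GNB3, the cone transducin beta subunit, with 8.33 ± 3.21 in coding sequence; the replicate values of ARR3, 6 to 13 tags, overlap those of both. None of 8 Müller glia, 8 retinal pigment epithelium and 8 blood and microglia markers had a listed site. Against a share of 1.10% over protein-coding symbols, this says little about whether those cells were present.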

How the data were processed

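Argonaute HITS-CLIP of bovine retina was measured in 3 replicates. CASAVA 1.8.1 and GSNAP appear in the submitters' processing notes with no role stated; peak caller, build and listing rule were not given in the sources used here. Deposited tables, 1 per strand, pair a gene name and location class with a peak in each replicate. Per the file headers, tags are a count per peak; they were used unscaled, and the listed sites held 6421, 5779 and 4114 tags in replicates 1, 2 and 3, sums that are not library depths. The score is the log10 of the p-value times minus 10, per the file headers. Fold enrichment is a ratio, per the file headers, over a background they do not describe. Start, end, length and summit were used as deposited.

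Computation used Python 3.11.15 (numpy 2.4.6, scipy 1.17.1, pandas 2.3.3) and figures matplotlib 3.10.9. Each site's tags were tested over replicates by an exact multinomial test. Expected shares came from the median ratio of each replicate over the sites, and p-values were Benjamini-Hochberg adjusted over 402 sites, with a threshold of 0.05; the test was checked on simulated data. The members and gene lists were chosen with earlier results of these data known. Named genes are the members, the listed partners with a site, the 3 genes nearest to each member in mean summed tags and the genes with at least as many sites as SAG; IMPG2, TNRC6B, TNPO1, ARRDC3 and the genes of the activating branch were chosen after their values were seen. Some genes that these rules select are not reported here. Gene IDs came from the NCBI RefSeq table of ARS-UCD2.0, whose coordinates were not used. Alternatives were merged sites, stricter limits, other scalings, peak length and each replicate left out.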

Additional observations from a re-analysis of the deposited data

How the results depend on the processing

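The 7 SAG sites and the ARR3 site were unchanged with sites within 100 or 1000 nt of genomic sequence merged. They were also unchanged with the 3 peaks required to share 50% of the shortest. Of sites above the median height SAG kept 2 and ARR3 0, and of sites whose lowest score was above the median SAG kept 3 and ARR3 0; both limits remove low sites by construction. The coding share of SAG was 100% of the 2 sites above the median height. Mean summed tags stayed within 1 SD under each scaling tried; per 100 nt of peak they became densities of 16.2 for SAG and 15.8 for ARR3. With a replicate left out the mean ran from 64.5 to 74.5 tags for SAG and from 6.50 to 10 for ARR3. The lowest mean was without replicate 1 for SAG and without replicate 2 for ARR3. SAG minus ARR3 ran from 54.5 to 65 tags with a replicate left out and could not be computed above the median height. The exact multinomial test called 47 sites without scaling and 2 with shares weighted by peak length, against 20, and 6 to 12 with a replicate left out; it called no arrestin site under any of the settings run. Scaling by the fold enrichment steps, chosen after seeing the data, put SAG at 54.4, 68.9 and 82.8 tags in replicates 1, 2 and 3 and called 24 sites, 13 of them among the 20, with unadjusted p of 0.0474 at SAG site 2 and 0.0433 at ARR3 (exact multinomial test). SAG site 2 also had an unadjusted p of 0.0315 without replicate 1 (exact test of the other 2). No paired analysis between groups was possible because the labels describe 1 group; SAG minus ARR3 was paired by replicate throughout. At median heights of 12, 10 and 7 tags in replicates 1, 2 and 3, depth limits every statement on a single site.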
